A study of Mus musculus with 8 samples.

Results

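Skin expression of 9 genes was followed in 8 mouse RNA sequencing libraries: the major histocompatibility complex (MHC) class II genes Ciita, H2-Aa, H2-Ab1, H2-Eb1, Cd74, H2-DMa and H2-DMb1, and the lectin genes Cd207 and Cd209b. The genes were taken by symbol from the deposited table, and all 9 were found among its 24612 genes. All animals were male C57 BL/6 J mice whose treatment began at 6 weeks of age, and RNA came from whole skin homogenate after 21 days. There were 3 celastrol libraries (Celastrol 2, 3 and 5), from mice injected in the peritoneum each day with 1 or 2 mg/kg of celastrol, a plant triterpenoid. There were 3 bleomycin libraries (Bleomycin 2, 3 and 4), from mice given 0.1 units of bleomycin under the skin, a DNA-damaging agent used to model skin fibrosis. There were 2 PBS libraries (PBS 2 and 3), from mice given 0.1 mL of phosphate-buffered saline under the skin. The labels give neither the dose of a single celastrol mouse nor whether these mice also received bleomycin, and injection routes differed between groups.

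MHC class II molecules display peptides from engulfed proteins to CD4 T cells. An alpha and a beta chain are held together in the endoplasmic reticulum by the invariant chain, and H2-DM later exchanges the remaining invariant chain fragment for peptide. The coactivator CIITA switches on the whole set through a shared promoter module that RFX, CREB and NF-Y proteins occupy. In skin the genes are read in Langerhans cells of the epidermis, which carry the lectin langerin, the product of Cd207, and in dendritic cells and macrophages of the dermis. Langerin is also made by a subset of dermal dendritic cells. Cd209b encodes SIGN-R1, a lectin that binds polysaccharides and is best known from macrophages of the splenic marginal zone.

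The bases upstream of H2-Eb1 and H2-Aa are shown. In H2-Eb1 the letters searched gave an X-type and a Y-type match, and in H2-Aa they gave a Y-type match alone. They come from RefSeq on build GRCm38.p6, where 6 of the 9 genes had a promoter entry (not Ciita, H2-Ab1 or Cd74). Each line holds the 250 bases before the annotated start, 5′ to 3′ on the gene's own strand, and capitals mark matches to an X-type motif (GNNAC followed directly by NNATG) or a Y-type motif (GATTGG) on either strand. H2-Eb1 lies on the plus strand and the stretch is chr17:34305617-34305866, and H2-Aa lies on the minus strand with chr17:34287824-34288073.
H2-Eb1: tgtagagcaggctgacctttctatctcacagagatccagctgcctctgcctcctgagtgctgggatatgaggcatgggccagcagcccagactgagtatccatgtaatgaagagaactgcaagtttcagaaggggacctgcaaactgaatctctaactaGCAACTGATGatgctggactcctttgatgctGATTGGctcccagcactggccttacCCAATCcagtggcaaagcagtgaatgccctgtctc
H2-Aa: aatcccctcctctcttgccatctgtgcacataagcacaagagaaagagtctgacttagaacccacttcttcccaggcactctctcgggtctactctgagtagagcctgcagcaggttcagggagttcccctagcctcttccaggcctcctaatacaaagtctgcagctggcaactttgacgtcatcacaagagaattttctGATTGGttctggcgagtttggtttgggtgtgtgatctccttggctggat
In H2-Eb1 the X-type match GCAACTGATG began 91 bases before the start and a Y-type match began 60 bases before it, with a gap of 21 bases between them. A further Y-type match lay on the opposite strand. H2-DMb1 had the same arrangement, with GTAACTGATG at 94 bases, a Y-type match at 62 bases and a gap of 22 bases. H2-Aa had a Y-type match at 49 bases and no match to these X-type letters. The letters are narrow, so the lack of a match does not show that H2-Aa lacks an X-type element. Among 32851 RefSeq promoter windows of 300 bases, 8.97% held an X-type match and 16.1% a Y-type match, and 26 windows (0.0791%) held both on the same strand with a gap of 10 to 30 bases. These 26 windows belonged to 23 genes, of which 4 were class II genes (H2-DMb1, H2-Eb1, H2-Eb2 and H2-Ob). The letters were chosen from the known class II boxes, so the matches are a description only.

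On mm10, with gene starts and ends that match GENCODE M21, H2-DMa (17:34119541-34139101, plus strand), H2-DMb1 (17:34153072-34160230, plus), H2-Ab1 (17:34257689-34269419, plus), H2-Aa (17:34282744-34287823, minus) and H2-Eb1 (17:34305867-34316674, plus) lie close together in the MHC on chromosome 17. Ciita lies at 16:10480059-10528418 (plus), Cd74 at 18:60803848-60812652 (plus), Cd207 at 6:83671215-83677857 (minus) and Cd209b at 8:3917655-3926844 (minus), each position being that of the whole gene.

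Values below are the authors' deposited normalized values, on a linear scale. Changes are log2 fold changes of the value plus 1 with the standard error (SE) of a limma fit over all 8 libraries, and a change is called at an adjusted p under 0.05 over 23185 genes tested. All 9 genes passed the filter on low values. The estimated depth lay between 14918464 and 37053366 reads per library and was lowest in Celastrol 3 and Celastrol 2. Celastrol 2 stood apart on principal component 1, at 237.5 where the other libraries lay between -57.3 and -3.63. The labels do not say that each library came from a separate animal, so p-values measure only the spread between these libraries.

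The labelled tissue was visible in its markers, with the basal keratin gene Krt5 between 20749.7 and 77755 in every library. Summed markers of fibroblasts (5 genes) lay at 8750.5 to 25604 in celastrol and 8583 to 49768 in bleomycin libraries, against 169699.9 to 461590.3 in PBS libraries. Summed markers of skeletal muscle (5 genes) lay at 1187197 to 1814979.8 in celastrol and 748144 to 987731 in bleomycin libraries, against 508183 to 524744 in PBS libraries. Ttn made up most of the muscle sum in each library, while Acta1 overlapped PBS in celastrol and in bleomycin. In PBS libraries Col1a1 and Col1a2 made up most of the fibroblast sum. Of the fibroblast genes 4 fell in celastrol and 3 in bleomycin, and of the muscle genes 3 rose in celastrol and 1 in bleomycin, all against PBS in limma. Of all genes tested, 0.543% fell and 0.824% rose for celastrol, and 0.224% and 0.453% for bleomycin. These marker levels moved with the groups, and their part in the results below was not tested. In a homogenate, fewer cells of a type and less RNA per cell cannot be told apart.

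Per kilobase of exon, Cd74 had the highest level of the 9 genes in each of the 8 libraries and H2-Eb1 the next highest. Cd74 had 1400.2 ± 293 per kilobase in celastrol and 1938 ± 727 in bleomycin libraries (SD, n = 3 each), against 3812 ± 2254 in PBS libraries (SD, n = 2). H2-Eb1 had 583 ± 94.5 per kilobase in celastrol and 798 ± 79.9 in bleomycin libraries, against 1328 ± 359.7 in PBS libraries. H2-Aa and H2-Ab1 followed and changed places between libraries, and their group means per kilobase differed by less than their SDs. H2-DMb1, Cd207, H2-DMa, Cd209b and Ciita were lower in every library, between 0 and 279 per kilobase.

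In celastrol skin H2-Eb1 fell against PBS, and Ciita, H2-Aa, H2-Ab1, Cd74 and Cd209b were lower without overlap but did not pass, while H2-DMa, H2-DMb1 and Cd207 overlapped PBS. Of the 9 members, 1 fell, 0 rose and 8 did not pass, where 1.37% of all genes tested were called, 0.543% lower and 0.824% higher. The libraries of 6 members did not overlap, all lower in celastrol, where 13.7% of all genes tested were lower and 13.2% higher without overlap. At an unadjusted p under 0.05 the same comparison had 6 members lower and 0 higher, against 5.91% of all genes lower and 6.13% higher. The members' median change was -1.14, and that of all genes tested was -0.07. Without PBS 2 the members' median was -0.68. The 4 classical genes are read in the same cells and share a regulator, so they are not independent of each other.

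Ciita, the coactivator gene that controls the other class II genes, had 200.2, 231 and 279.6 in celastrol libraries and 565, 579 and 396 in bleomycin libraries, against 638 and 369.6 in PBS libraries. Every celastrol library was below every bleomycin and PBS library, while bleomycin and PBS overlapped. The change for celastrol against PBS was -1.05 ± 0.33 (SE) and did not pass in limma (adjusted p = 0.207), and without PBS 2 it was -0.65.

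H2-Eb1, a beta chain gene, was the member that fell. C57BL/6 mice lack the partner alpha chain, so in this strain its message is not matched by surface I-E protein. It had 1013, 1041 and 1344 in celastrol libraries and 1587, 1685 and 1381 in bleomycin libraries, against 3075 and 2086 in PBS libraries. The groups stood in steps without overlap, lowest in celastrol and highest in PBS. The change for celastrol against PBS was -1.17 ± 0.22 (SE, limma adjusted p = 0.0345). The call was lost when any library but Bleomycin 2 was left out, with changes of -0.89 without PBS 2 (adjusted p = 0.261), -1.45 without PBS 3 (0.0833), -1.10 without Celastrol 2 (0.105), -1.12 without Celastrol 3 (0.0799) and -1.30 without Celastrol 5 (0.076), and adjusted p of 0.0511 without Bleomycin 3 and 0.059 without Bleomycin 4. The change was negative in each of these fits.

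H2-Aa, the alpha chain gene of I-A, had 854, 1451 and 1376 in celastrol libraries and 1582, 1980.3 and 1717 in bleomycin libraries, against 3529 and 1969.6 in PBS libraries. All celastrol libraries lay below both other groups, and the bleomycin libraries overlapped PBS 3. H2-Ab1, the beta chain gene of I-A, had 547, 887 and 1269 in celastrol libraries and 1441, 1174 and 1073 in bleomycin libraries, against 2835 and 1424 in PBS libraries. Celastrol lay below PBS and overlapped bleomycin. For celastrol against PBS the changes were -1.14 ± 0.29 for H2-Aa and -1.24 ± 0.37 for H2-Ab1, and neither passed in limma (adjusted p = 0.107 and 0.173).

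Cd74, the invariant chain gene, had 2096, 2038 and 2919 in celastrol libraries and 4654, 2708 and 2402 in bleomycin libraries, against 9077 and 3725 in PBS libraries. All celastrol libraries were below both PBS libraries, and the bleomycin libraries ran from within the celastrol range to above PBS 3. The change for celastrol against PBS was -1.33 ± 0.37 and did not pass in limma (adjusted p = 0.149). PBS 2 was the highest library for all 4 classical genes and for Ciita. Without it the median change of the 4 classical genes for celastrol against PBS was -0.73, where it was -1.21 with all libraries.

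**Figure D1:**
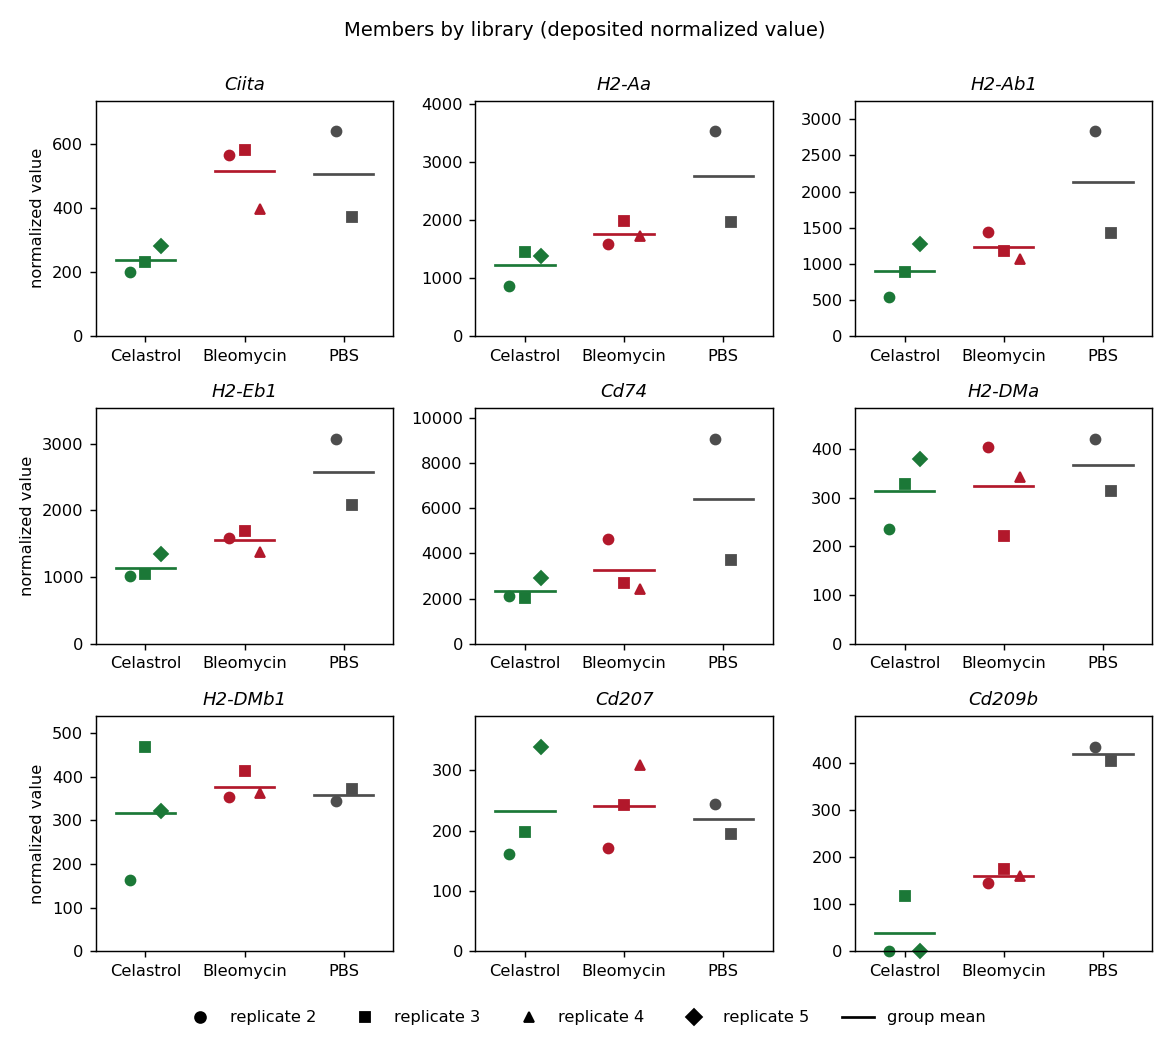
Deposited normalized value of each of the 9 genes (y axis, linear, from 0) in the celastrol, bleomycin and PBS libraries (x axis), with 1 point per library, a symbol per replicate number and a line at the group mean. Celastrol points lie below PBS points for Ciita, H2-Aa, H2-Ab1, H2-Eb1, Cd74 and Cd209b, and the groups overlap for H2-DMa, H2-DMb1 and Cd207.

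For H2-DMa and H2-DMb1, the 2 genes of the peptide exchange factor among the members, the groups overlapped. H2-DMa had 235, 327 and 380.0 in celastrol libraries and 404, 222 and 343 in bleomycin libraries, against 421 and 314 in PBS libraries. H2-DMb1 had 164, 469 and 321 in celastrol libraries and 353, 413 and 364 in bleomycin libraries, against 345 and 373 in PBS libraries. All groups overlapped for both genes, and Celastrol 2 was the lowest library for H2-DMb1. H2-DMb2, a further H2-DM gene outside the members, had 82.2, 135 and 119 in celastrol libraries, against 162 and 145 in PBS libraries. It was lower without overlap, as were 13.7% of all genes tested, at -0.48 ± 0.44 (limma adjusted p = 0.732). Its bleomycin libraries, at 158, 123 and 122, overlapped PBS. For celastrol against PBS the intervals of the change (95%) ran from -1.03 to 0.55 for H2-DMa and from -1.19 to 0.59 for H2-DMb1. Of the 50-base stretches in H2-DMb1 transcripts, 22.7% also occur in H2-DMb2, and 10.4% of the exon bases of H2-DMa overlap Brd2 on the other strand, so reads of these genes may be divided differently by other counting.

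Cd207, the langerin gene and the Langerhans cell marker of the set, had 161, 197 and 339 in celastrol libraries and 171, 243 and 309 in bleomycin libraries, against 245 and 195 in PBS libraries. Celastrol and bleomycin libraries spread on both sides of PBS. The change for celastrol against PBS was 0.01 ± 0.42 (limma adjusted p = 0.993), with a 95% interval from -0.92 to 0.95, and for bleomycin against PBS it was 0.10 ± 0.42 (adjusted p = 1). The interval for bleomycin ran from -0.83 to 1.03. Cd207 was also summed with Epcam and Ly75, the other genes on the list of Langerhans cell markers. The sum was 1423 to 2388 in celastrol and 1600.3 to 1972 in bleomycin libraries, against 1151 to 1442 in PBS libraries. Which cells of the homogenate made Epcam and Ly75 was not tested. Epcam made up most of the sum in each library, with 860 to 1669 in celastrol, 987 to 1311 in bleomycin and 751 to 981 in PBS libraries. The sum therefore mostly follows Epcam and not Cd207. Within a library Cd207 was 0.159 to 0.253 times H2-Eb1 in celastrol and 0.108 to 0.224 times in bleomycin libraries, against 0.0796 to 0.0936 times in PBS libraries, a ratio chosen after the values were seen.

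Cd209b had the widest range of the 9 genes on the log2 scale. It had 0, 116 and 1.42 in celastrol libraries and 145, 175 and 159 in bleomycin libraries, against 434 and 404 in PBS libraries. The groups did not overlap and stood in the same order as for H2-Eb1. The value in Celastrol 5 corresponds to about 2.00 reads and that in Celastrol 3 to 68.9 reads, while Celastrol 2 had 0 reads, which allows a value of up to 4.93 (3 reads, counting error only). Celastrol 2 had 4523 genes at 0, against 751 to 3343 in the other libraries, and the part of this in the zeros was not tested. The change for celastrol against PBS was -6.00 ± 1.56 and did not pass in limma (adjusted p = 0.115). Celastrol 3 stood apart from the other celastrol libraries, and without it the change was -8.07 and passed (adjusted p = 0.00393), while without Celastrol 2 it was -4.64 (0.221) and without Celastrol 5 -5.28 (0.261). The size also depends on the pseudocount, and with 10 in place of 1 it was -4.14 and passed (adjusted p = 0.0416).

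The 6 other CD209 genes of the same stretch of chromosome 8, lectins related to human DC-SIGN, were compared as a list. For celastrol against PBS 6 of 6 were lower without overlap and 0 passed, with a median change of -2.76, against 13.7% of all genes lower without overlap. For bleomycin against PBS 6 of 6 were also lower without overlap and 0 passed, with a median of -1.28, against 11.6% of all genes. Both comparisons use the same PBS libraries, and 1.37% (celastrol) and 0.677% (bleomycin) of all genes tested were called in them. Cd209a, a gene of dermal dendritic cells, had 0, 243 and 125 in celastrol libraries and 235, 259 and 177 in bleomycin libraries, against 683 and 539.6 in PBS libraries. Cd209g had 32.8, 77.0 and 6.15 in celastrol libraries and 95.6, 51.3 and 60.1 in bleomycin libraries, against 289 and 381 in PBS libraries. Its change for celastrol against PBS was -3.64 ± 0.90 and that of Cd209c was -1.30 ± 0.31 (limma adjusted p = 0.0932 and 0.0851), and for bleomycin Cd209e had -1.93 ± 0.54 and Cd209g -2.30 ± 0.90 (adjusted p = 0.21 and 0.579). Without Celastrol 3, 3 of the 6 passed (Cd209c, Cd209f and Cd209g), where 307 of 23185 genes tested were called. Celastrol 3 was the highest celastrol library for 6 of the 7 CD209 genes with Cd209b included. Leaving it out therefore lowers the celastrol level of these genes. Of the 50-base stretches, 0% of Cd209b and 29.8% of Cd209f are shared with another gene, in Cd209f with Cd209g. All 6 kept a negative change against PBS, in both comparisons, under the 18 alternative settings.

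**Figure D2:**
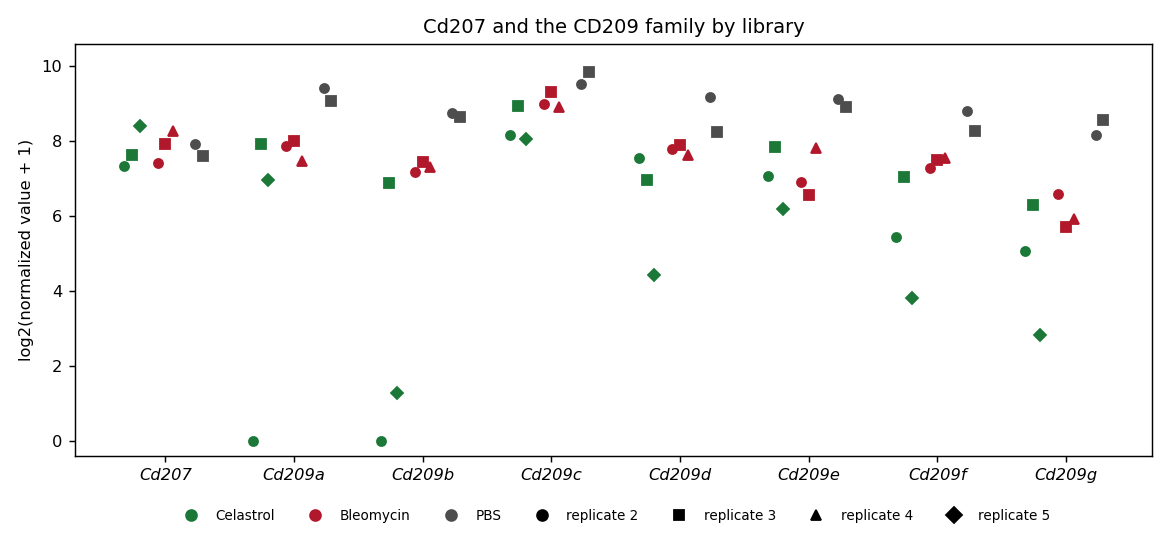
Values of Cd207 and of the 7 CD209 genes as log2 of the normalized value plus 1 (y axis), with 1 point per library coloured by group and a symbol per replicate number. For each CD209 gene all celastrol and bleomycin points lie below both PBS points, with Cd209b at 0 in Celastrol 2 and at 1.42 on the linear scale in Celastrol 5, and Cd207 shows the groups mixed.

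For bleomycin against PBS, 0 of the 9 members passed in limma, where 0.677% of all genes tested were called, 0.224% lower and 0.453% higher. The libraries of 2 members (H2-Eb1 and Cd209b) did not overlap, both lower in bleomycin, where 11.6% of all genes tested were lower and 12.0% higher without overlap. At an unadjusted p under 0.05, 2 members (H2-Eb1 and Cd74) were lower and 0 higher, against 3.20% of all genes lower and 3.62% higher. Without PBS 3, 7 members were lower and 1 higher without overlap, where 26.1% of all genes tested were lower and 26.2% higher. Without Bleomycin 2, 4 members were lower, where 19.8% of all genes tested were. Without PBS 2, H2-Eb1 and Cd209b were lower and Ciita was higher, where 27.8% of all genes tested were lower and 27.3% higher. H2-Eb1 had -0.71 ± 0.22 (limma adjusted p = 0.31), and H2-Aa, H2-Ab1 and Cd74 had -0.59 ± 0.29, -0.72 ± 0.37 and -0.90 ± 0.37 (adjusted p = 0.838, 0.859 and 0.639). The median of the 4 classical genes was -0.72, and it was -0.24 without PBS 2 and -1.11 without PBS 3. Ciita had 0.06 ± 0.33 (adjusted p = 1).

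For celastrol against bleomycin, 0 of the 9 members passed in limma and 0 of all genes tested did (0%), with a smallest adjusted p of 0.975 over all genes and 898 genes at an unadjusted p under 0.05. Ciita, H2-Aa, H2-Eb1 and Cd209b were lower without overlap, 4 of 9 members against 4.59% of all genes tested, and 0 members were higher, against 4.13%. At an unadjusted p under 0.05, 3 members were lower (Ciita, H2-Eb1 and Cd209b) and 0 higher, against 2.49% of all genes lower and 1.38% higher. Ciita had a change of -1.10 ± 0.30, H2-Aa of -0.55 ± 0.26, H2-Eb1 of -0.46 ± 0.20 and Cd209b of -4.61 ± 1.39 (limma adjusted p = 0.975 for each). Without Celastrol 3, Cd209b was the 1 gene called in this comparison, at -6.69 (adjusted p = 0.0372). Within a library Ciita was 0.198 to 0.222 times H2-Eb1 in celastrol libraries and 0.287 to 0.356 times in bleomycin libraries, and it was 0.177 to 0.208 times in PBS libraries, a ratio chosen after the values were seen.

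**Figure D3:**
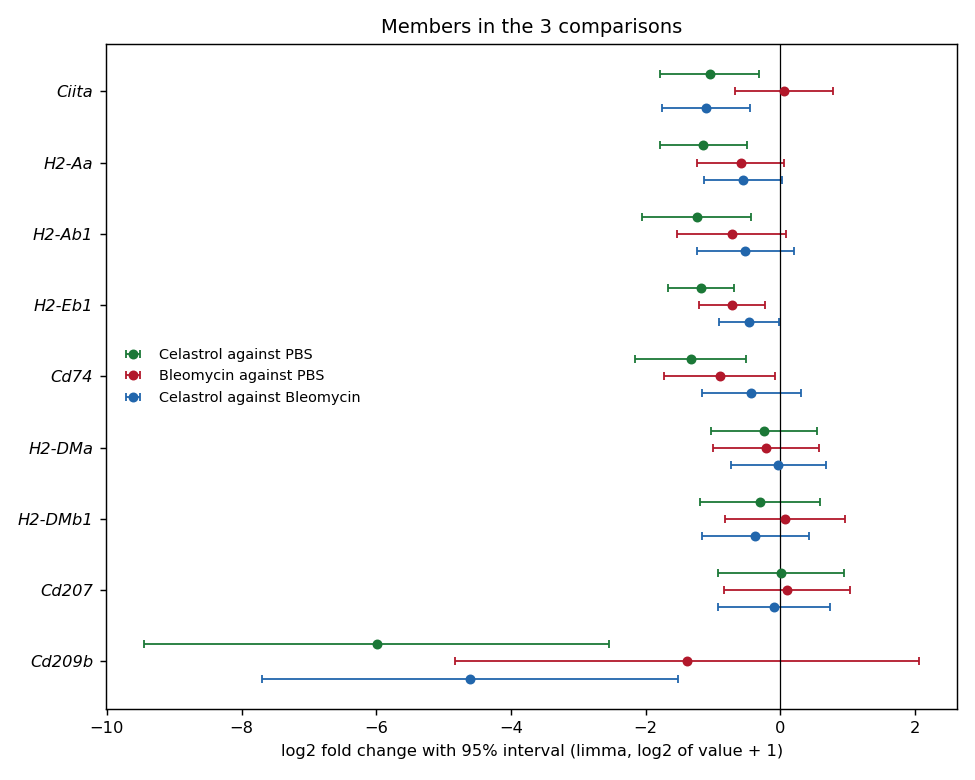
log2 fold change of each of the 9 genes (x axis, log2 of value plus 1) with its 95% interval from the limma fit, for celastrol against PBS (green), bleomycin against PBS (red) and celastrol against bleomycin (blue). The H2-Eb1 change of -1.17 for celastrol against PBS was the only one called, and the widest intervals are those of Cd209b.

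Genes that act around the class II molecules were read from lists chosen with earlier results of these data known. Among 9 other chains and accessory genes, 1 rose in celastrol and 1 in bleomycin against PBS, where 0.824% and 0.453% of all genes rose. In each comparison 0 fell and 8 did not pass, with medians of 0.60 and 0.51. The gene called in both was Ctss, the protease cathepsin S that trims the invariant chain, with 5927, 9294 and 12537 in celastrol libraries and 6872, 10689 and 10708 in bleomycin libraries, against 2875 and 2686 in PBS libraries. Its changes were 1.67 ± 0.30 for celastrol and 1.73 ± 0.30 for bleomycin, both against PBS (limma adjusted p = 0.0254 and 0.031). All celastrol and bleomycin libraries lay above both PBS libraries. Lgmn, another endosomal protease gene, had changes of 1.14 ± 0.25 and 1.08 ± 0.25 that did not pass (adjusted p = 0.0562 and 0.101). H2-Ob, a beta chain gene of the H2-DM inhibitor, was at 0 in Celastrol 2 and Celastrol 3 and between 8.82 and 61.9 in the other libraries. For Ctss the celastrol call was lost without PBS 2 (adjusted p = 0.133), PBS 3 (0.201), Celastrol 3 (0.0605) or Celastrol 5 (0.0907), and the bleomycin call without PBS 2 (0.142), PBS 3 (0.252), Bleomycin 3 (0.116) or Bleomycin 4 (0.158). Both calls were also lost after rescaling to the same upper quartile (0.0731 for celastrol and 0.0622 for bleomycin), with only the groups compared in the fit (0.0564 and 0.0524) and with eBayes without a trend (0.201 and 0.303).

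Of the 7 genes of the promoter complex with RFX, CREB and NF-Y subunits, 0 passed in any comparison. Among all genes tested, 1.37% were called for celastrol and 0.677% for bleomycin against PBS, and 0% for celastrol against bleomycin. The medians of the list were 0.03 for celastrol and -0.04 for bleomycin against PBS. Nfyb had the smallest p in both, at 0.46 and 0.68 (adjusted p = 0.609 and 0.704), followed for celastrol by Rfxap at -2.43 ± 1.65 (0.621) and for bleomycin by Rfx5 at -0.28 ± 0.25 (1), both genes of the RFX complex. Rfxap was at 0 in Celastrol 2, with 111 and 96.8 in the other celastrol libraries, against 135 and 105 in PBS libraries, so its change rests on that library.

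Among 12 genes of Langerhans cells and their skin niche, 1 rose, 0 fell and 11 did not pass for celastrol against PBS (median -0.43), and 0 passed for bleomycin (median -0.06). Of all genes tested, 0.824% rose and 0.543% fell for celastrol, and 0.677% were called for bleomycin. Cd24a, a surface glycoprotein that keratinocytes also make, had 5794, 6082 and 6249 in celastrol libraries and 3115, 7565 and 4796 in bleomycin libraries, against 2146 and 1980.6 in PBS libraries. It rose by 1.55 ± 0.29 in celastrol (limma adjusted p = 0.033) and had 1.23 in bleomycin (adjusted p = 0.111), which passed without Bleomycin 2 at 1.55 (0.0101). Ly75, the endocytic receptor DEC-205, had 0.94 ± 0.30 in bleomycin (adjusted p = 0.313). Tgfb1, the cytokine gene that Langerhans cells depend on, had changes of -1.07 ± 0.48 and -0.05 ± 0.48 (adjusted p = 0.415 and 1). The Cd24a call for celastrol was lost without PBS 2 (0.15), PBS 3 (0.24), Bleomycin 4 (0.059), Celastrol 2 (0.0905), Celastrol 3 (0.0724) or Celastrol 5 (0.121), and also without a trend (0.225).

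Among 7 genes of dendritic cell maturation and migration, 1 rose and 0 fell in each comparison with PBS. Of all genes tested, 0.824% rose for celastrol and 0.453% for bleomycin. The medians of the list were -0.50 for celastrol and -0.05 for bleomycin. Ccr7 and Ccl19 were at or near 0 in several libraries. The bleomycin median was the change of Ccl19, and with a pseudocount of 0.5 the median was 0.10. Without PBS 2 the medians of the list were 0.18 for celastrol and 0.48 for bleomycin. Cd80, a costimulatory ligand for T cells, had 317, 343 and 221 in celastrol libraries and 225, 323 and 402 in bleomycin libraries, against 58.6 and 67.8 in PBS libraries. It rose by 2.18 ± 0.39 and 2.27 ± 0.39 (limma adjusted p = 0.0263 and 0.0317). Ccl21a, which guides migrating cells into lymph vessels, had a change for celastrol with a 95% interval from -1.87 to -0.14 and a change for bleomycin of -0.59 ± 0.39 (adjusted p = 0.329 and 1). The Cd80 calls were lost without PBS 2 (0.151 and 0.177), PBS 3 (0.149 and 0.197), Bleomycin 4 (0.0558 and 0.206) or Celastrol 5 (0.076 and 0.0509), for celastrol also without Celastrol 2 (0.0706) or Celastrol 3 (0.0619), and for bleomycin without Bleomycin 3 (0.113). Both were also lost with only the groups compared in the fit (0.0933 and 0.069) and without a trend (0.0998 and 0.137).

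Of 12 genes of conventional dendritic cells, 0 passed in any comparison. Among all genes tested, 1.37% were called for celastrol and 0.677% for bleomycin against PBS, and 0% for celastrol against bleomycin. The medians of the list were -0.94 for celastrol and 0.05 for bleomycin against PBS. Mgl2, a lectin of a dermal dendritic cell subset, had 158, 628 and 657 in celastrol libraries and 800.1, 1149.6 and 733 in bleomycin libraries, against 2307 and 1589 in PBS libraries. Its groups did not overlap and stood in the order of H2-Eb1, with a change of -2.25 ± 0.53 for celastrol against PBS (limma adjusted p = 0.0778). Irf4, a transcription factor gene of the same subset, had -1.07 ± 0.30 for celastrol and -0.97 ± 0.30 for bleomycin (adjusted p = 0.148 and 0.295). Irf8, a transcription factor gene of another dendritic cell subset, was higher without overlap in both, at 0.93 ± 0.39 for celastrol and 1.06 ± 0.39 for bleomycin (adjusted p = 0.38 and 0.527). For celastrol 4 of 12 changes were positive, with 1 gene higher and 6 lower without overlap, and for bleomycin 7 of 12 were positive, with 3 higher and 4 lower. Of all genes tested, 13.2% were higher and 13.7% lower without overlap for celastrol, and 12.0% and 11.6% for bleomycin. Clec10a, a lectin gene next in order for bleomycin, had -0.75 ± 0.27 (adjusted p = 0.495). Without Celastrol 2 the celastrol median of the list was -0.57.

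For celastrol against bleomycin 0 genes of these 6 lists passed in limma, and each gene named here had an adjusted p of at least 0.975. The medians were -0.04 for the accessory genes, -0.08 for the promoter complex, -0.09 for the Langerhans cell niche, -0.21 for maturation, -0.46 for conventional dendritic cells and -1.40 for the CD209 genes, beside -0.04 for all genes tested. Of the conventional dendritic cell genes, 12 of 12 had a negative change (10 with library weights, and 8 without Celastrol 5). Among all genes tested, 53.4% had a change of -0.0032 or lower. Zbtb46, a transcription factor gene of this lineage, had -1.61 ± 0.69 and Mgl2 had -1.12 ± 0.47, while Xcr1 and Clec10a had -0.06 each. Clec9a and Cd209a were at 0 in Celastrol 2 and Batf3 in Celastrol 3, and Cd209a is also counted among the CD209 genes. Of the CD209 genes, 6 of 6 had a negative change (5 without Celastrol 5 or Bleomycin 4, with a median of -0.52 without Celastrol 5), with Cd209f at -2.01 ± 0.69 and Cd209c at -0.68 ± 0.28. In the Langerhans cell niche the smallest p belonged to Tgfb1 at -1.02 ± 0.43 and Runx3, a factor gene these cells require, at -1.14 ± 0.51. The others with the smallest p in their list were H2-Ob (-3.03 ± 1.43) and Ctsl (0.32 ± 0.21), Rfxap (-2.47 ± 1.47, resting on the same 0 in Celastrol 2) and Creb1 (0.21 ± 0.18), and Cd83 (-0.80 ± 0.55) and Ccl21a (-0.41 ± 0.35).

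**Figure D4:**
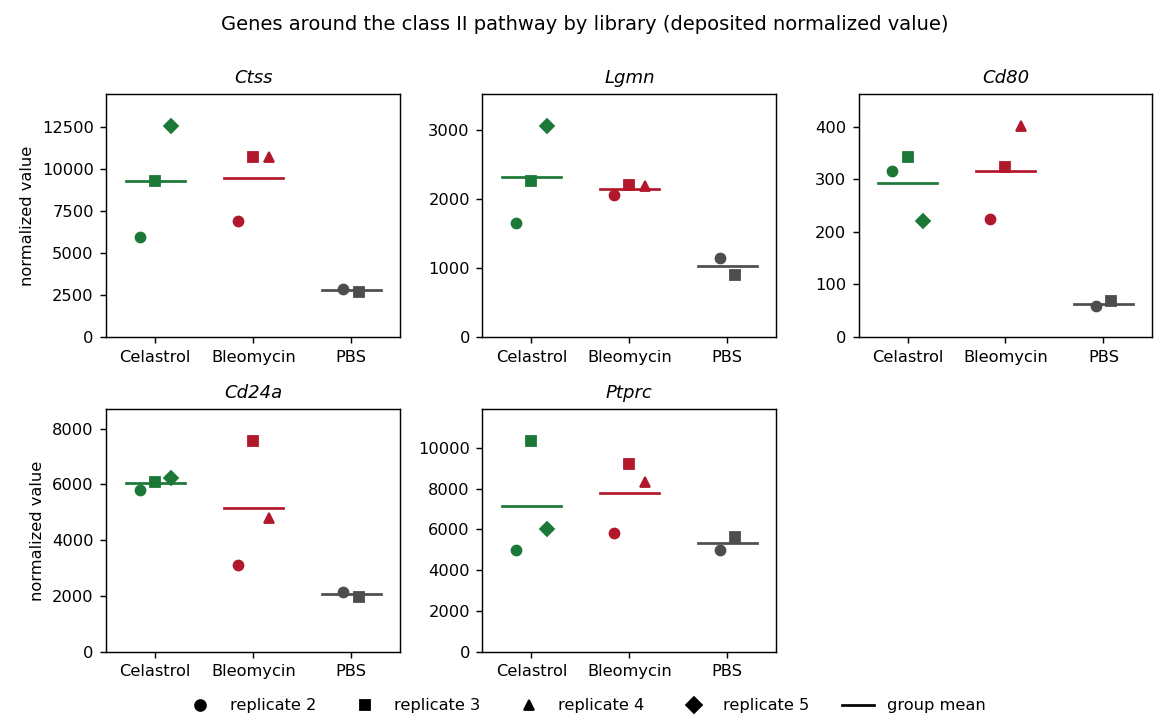
Deposited normalized value (y axis, linear, from 0) of Ctss, Lgmn, Cd80, Cd24a and the leukocyte gene Ptprc in the celastrol, bleomycin and PBS libraries (x axis), with 1 point per library and a line at the group mean. All celastrol and bleomycin points of Ctss, Lgmn, Cd80 and Cd24a lie above both PBS points, and those of Ptprc overlap PBS in celastrol.

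Leukocyte markers were read beside the class II genes. The 5 pan-leukocyte genes, none of which is at 0 in any library, summed to 7673 to 12719.9 in celastrol and 9846 to 11734.5 in bleomycin libraries, against 6928 to 7426 in PBS libraries. Ptprc made up most of this sum in each library. Of these 5 genes 0 passed in limma, where 1.37% of all genes tested were called for celastrol and 0.677% for bleomycin against PBS. The medians of the 5 genes were 0.59 for celastrol and 0.75 for bleomycin against PBS. H2-Eb1 was 0.101 to 0.223 times Ptprc in celastrol and 0.166 to 0.273 times in bleomycin libraries, against 0.370 to 0.614 times in PBS libraries, without overlap between PBS and the others and with overlap between celastrol and bleomycin. Set against Itgax, a gene of dendritic cells and some macrophages, H2-Eb1 was 5.24 to 12.9 times in celastrol and 4.89 to 7.37 times in bleomycin libraries, against 10.9999 to 12.5 times in PBS libraries, so celastrol overlapped PBS. Both ratios were chosen after the values were seen. The 8 markers of macrophages and monocytes summed to 7072 to 12249 in celastrol and 10523 to 12678 in bleomycin libraries, against 6909 to 8187 in PBS libraries. The 5 T cell markers summed to 859.9 to 1128 in celastrol and 986 to 1385 in bleomycin libraries, against 856 to 1282 in PBS libraries.

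**Figure D5:**
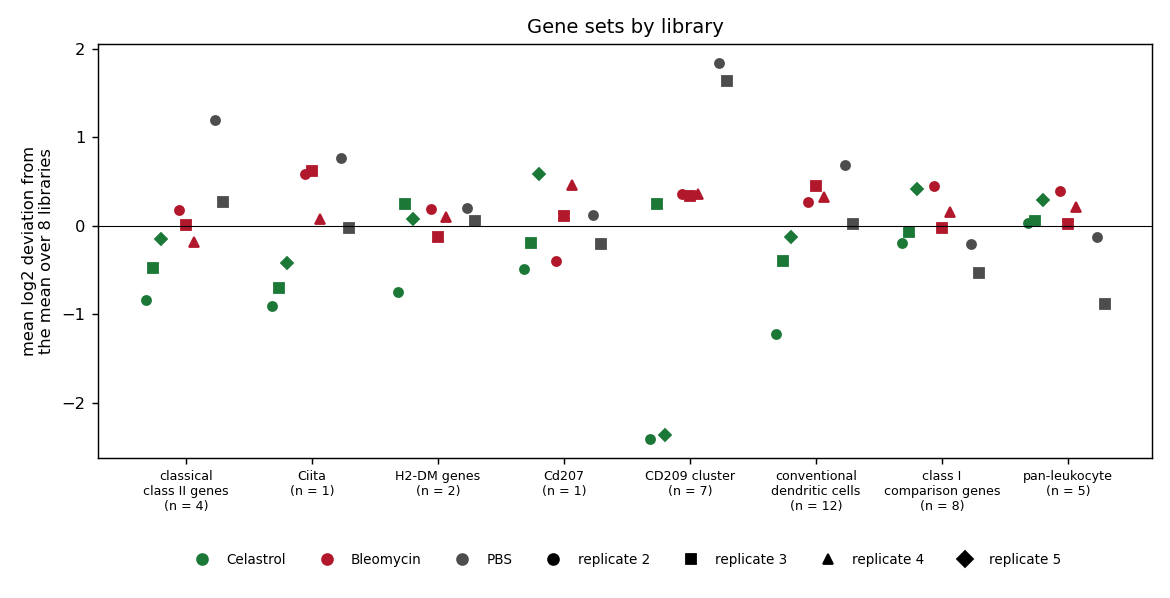
Mean deviation of each gene set from its mean over the 8 libraries, on the log2 scale (y axis), for the sets named on the x axis with their number of genes, with 1 point per library coloured by group and a symbol per replicate number. The 4 classical class II genes are highest in PBS 2 (1.19) and lowest in Celastrol 2 (-0.84), the CD209 genes are lowest in Celastrol 2 and Celastrol 5, and the pan-leukocyte genes are lowest in PBS 3 (-0.88).

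Likeness was measured over the 8 libraries as the root mean square difference between centred log2 profiles, among 13379 genes with a mean value of at least 50. The genes most like the mean of H2-Aa, H2-Ab1, H2-Eb1 and Cd74 were St6gal1, Rftn1, Csf1r, Fkbp9 and Wipi1, at differences of 0.178 to 0.235, where the profile itself had a root mean square of 0.561. St6gal1 had 169, 191 and 290.3 in celastrol and 303, 302 and 204 in bleomycin libraries, against 529 and 281 in PBS libraries. Csf1r, the receptor gene on which macrophages and Langerhans cells depend, had 759.9, 1378 and 1501 in celastrol and 1742, 1486 and 1215 in bleomycin libraries, against 2637 and 1463 in PBS libraries. Those most like Cd207 were Get1, Med19, Trmt10c, Idnk and Mrpl27, at 0.148 to 0.190 beside a root mean square of 0.362 for Cd207. Those most like Cd209b were Inmt, Myo16, Hoxd3, Alms1-ps1 and Pth1r, at 0.879 to 1.59 beside 3.14 for Cd209b, and all 5 were at 0 or near 0 in Celastrol 2, the library with the most genes at 0.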

How the data were processed

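Total RNA from mouse skin was sequenced in 3 celastrol, 3 bleomycin and 2 PBS libraries. Values are a normalized signal: the authors deposited estimated counts scaled by DESeq2 size factors in the poscounts form, as the file headers name it. Per the submitters' processing notes, Partek 10.0.22, STAR 2.7.3a and mm10 were used. Settings, annotation and strand use are not given in the sources used here.

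The deposited signal was tested as log2(value + 1) with limma 3.58.1 in R 4.3.3 (lmFit, eBayes with trend). All 8 libraries entered 1 fit with no covariate, and two-sided p-values were adjusted by Benjamini-Hochberg over 23185 genes that reached 10 in 2 or more libraries (1427 removed). Reads were estimated from the value of 1 read, the spacing of low values. Between 20.1% and 53.5% of values per library were whole reads within 0.03, so no count test was run and read numbers are approximate. Exon lengths and overlaps are from GENCODE M21, and the limma test was checked on simulated data. It called 10% of simulated 2-fold changes in each comparison with PBS and 18% for celastrol against bleomycin. Of simulated 4-fold changes it called 58% to 60%, and of unchanged genes 0.0174% to 0.0218%. A change of about 2-fold that did not pass is therefore not shown to be absent.

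The members and lists were chosen with earlier results of these data known. Named are the members, list genes past the threshold, otherwise those with the smallest p, and the 5 genes most like each profile. Other genes named with values were chosen after these were seen. Alternatives changed the pseudocount, filter, scaling, libraries fitted, weights, trend and replicate block. Some genes and the lists that rest on them are not reported here.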

Additional observations from a re-analysis of the deposited data

How the results depend on the processing

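Each result was recomputed under 18 alternative settings. Over the 27 changes of the 9 members these gave 486 values, of which 450 kept their direction and their side of the threshold, 10 lost the call, 5 gained one and 21 changed sign, and 18 of the 27 changes never changed sign. The number of genes called for celastrol against PBS was 317, and it was 159 with only the groups compared in the fit, 19 with eBayes without a trend and 35 to 419 with each library left out in turn. The number called for bleomycin against PBS was 157, and it was 46 with only the groups compared, 711 with library weights, 7 without a trend and 16 to 237 with libraries left out. For celastrol against bleomycin it was 0, with 2 without a trend and 0 to 1 with libraries left out. The members called for celastrol against PBS numbered 1, and 2 with a pseudocount of 10 or library weights (H2-Eb1 and Cd209b), 0 with only the groups compared or without a trend, and 0 to 1 with libraries left out. With library weights 1 member was called for bleomycin against PBS (H2-Eb1, -0.83, limma adjusted p = 0.039), and with libraries left out 0 were, while for celastrol against bleomycin the count was 0 to 1. H2-Eb1 for celastrol against PBS had an adjusted p of 0.0879 with only the groups compared and 0.203 without a trend. The causes of these shifts were not tested.

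The replicate numbers are shared only by libraries 2 and 3. Correlations of deviations lay between -0.00 and 0.20 over same-numbered libraries and between -0.20 and 0.12 over the others. With 2 PBS libraries the deviations of PBS 2 and PBS 3 mirror each other, so these correlations cannot decide whether the numbers mark pairs. The main fit did not take them as pairs. With the number as a replicate block 41 genes were called for celastrol against PBS, 17 for bleomycin against PBS and 0 of the members in either, and H2-Eb1 had -1.30 for celastrol against PBS (limma adjusted p = 0.114). The calls against PBS of Ctss (0.0931 for celastrol and 0.0871 for bleomycin), Cd80 (0.115 and 0.201) and Cd24a (0.163 for celastrol) were lost with the block. For celastrol against bleomycin it left 9 of 12 conventional dendritic cell genes and 5 of 6 CD209 genes negative, with a CD209 median of -0.59. The block also changed the sign of Cd207 for bleomycin (-0.10) and celastrol (-0.29) against PBS and of Cd80 for celastrol against bleomycin (0.29).

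Other changes of sign were Ciita for bleomycin against PBS with library weights (-0.20) and Cd207 for celastrol against PBS after rescaling to the same sum (-0.091) or upper quartile (-0.11). These rescalings put the median of all genes for celastrol against PBS at -0.17 and -0.19 in place of -0.07, and that of the members at -1.25 and -1.27 in place of -1.14. With each library left out in turn, the change for bleomycin against PBS ran from -0.33 to 0.45 for Ciita, -0.42 to 0.033 for H2-DMa, -0.0010 to 0.12 for H2-DMb1 and -0.10 to 0.33 for Cd207. For celastrol against PBS it ran from -0.64 to 0.11 for H2-DMb1 and -0.29 to 0.24 for Cd207. For celastrol against bleomycin it ran from -0.27 to 0.17 for H2-DMa, -0.71 to 0.046 for H2-DMb1, -0.39 to 0.14 for Cd207, -0.31 to 0.23 for Ctss and -0.32 to 0.10 for Cd80. Where a group was left with 1 library, that library was assumed to vary like the other groups. With 2 PBS libraries and values near 0 reads for Cd209b in celastrol, the size of its change is poorly fixed.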

Other observations

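Genes of MHC class I presentation, which serve the display of peptides from inside the cell, were read as a list. Of 8 such genes 0 passed in limma in any comparison. Among all genes tested, 1.37% were called for celastrol and 0.677% for bleomycin against PBS, and 0% for celastrol against bleomycin. All 8 had a positive change for celastrol and for bleomycin against PBS, and the medians were 0.39 and 0.47. Without overlap, 1 of the 8 was higher for celastrol and 4 for bleomycin, where 13.2% and 12.0% of all genes tested were. Those with the smallest p were B2m (0.94 ± 0.44) and the peptide transporter gene Tap1 (0.67 ± 0.39) for celastrol, with adjusted p of 0.439 and 0.549 in limma, and Tap1 (1.10 ± 0.39) and the coactivator gene Nlrc5 (0.43 ± 0.17) for bleomycin, with 0.459 and 0.585. B2m, the light chain gene of class I, had 27747 to 60894 in celastrol and 20605 to 48277 in bleomycin libraries, against 15059 to 32163 in PBS libraries, so the groups overlapped. H2-Eb1 was 0.0221 to 0.0365 times B2m in celastrol and 0.0286 to 0.0770 times in bleomycin libraries, against 0.0649 to 0.204 times in PBS libraries, a ratio chosen after the values were seen.

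Markers of resident dermal macrophages (Mrc1, Cd163, Lyve1 and Folr2) had medians of -0.59 for celastrol and -0.20 for bleomycin against PBS. In limma 0 of 4 passed the threshold, where 1.37% and 0.677% of all genes tested were called. Cd163, a haemoglobin scavenger receptor gene, had 2183, 4196 and 791 in celastrol and 1635, 2724 and 2339.8 in bleomycin libraries, against 3665 and 4945 in PBS libraries. Its changes were -1.14 for celastrol and -0.96 for bleomycin against PBS, where Folr2 had -0.88 and -0.43. Mrc1 had -0.05 and 0.13, and Lyve1 had -0.29 and 0.04. Celastrol 3 was the highest celastrol library for Cd163, as it was for Cd209b, Mrc1, Lyve1 and Ptprc, but not for Folr2.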
